A study of Mus musculus with 12 samples.

Results

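Glycolysis, lactate and pyruvate control was followed here through 37 genes, from the glucose transporters at the cell surface to the enzymes that decide whether pyruvate is oxidised. The members were taken by gene name from a list drawn up with earlier results of these data known, and all 37 had a row among the 26728 gene names that occur in the count tables of both days. Glycolysis breaks glucose down to pyruvate in the cytosol, and many of its steps are run by several isoenzymes that differ in tissue and in control. Pyruvate is then reduced to lactate and exported, or it is carried into mitochondria and oxidised by pyruvate dehydrogenase, which the PDK kinases switch off by phosphorylation and the phosphatase PDP1 switches on again. Cultured vascular smooth muscle cells are known to make much lactate even with oxygen present, and NR4A3 is a nuclear receptor that acts as a transcription factor.

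RNA-seq was made from primary mouse aortic cells labelled vascular smooth muscle cells, in 4 groups of 3 libraries. The groups were NR4A3 knockout (KO) at day 14, wild type (WT) at day 14, KO at day 1 and WT at day 1 of culture. By the protocols every group grew in DMEM/F12 with 10% serum and 10 mM beta-glycerophosphate (beta-GP), a phosphate donor used to drive calcification, whereas the treatment label names beta-GP for KO and none for WT. Genotype and whatever that label stands for cannot be told apart. The mouse strain, its age and the part of the gene removed are not stated in the labels. Nothing there says that the replicates are separate animals or cultures. The p-values therefore measure the spread from library to library, which may be technical.

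Levels are given as CPM, counts scaled to a common library size with TMM factors, and as the mean ± SD of 3 libraries where no single values are listed. Nr4a3 itself averaged 49.6 ± 13.6 CPM in KO, against 237 ± 19.6 CPM in WT, at day 14. At day 1 it averaged 2.08 ± 0.235 CPM in KO, against 4.25 ± 0.385 CPM in WT (n = 3 each). It was lower in KO at both days, by a log2 fold change of -2.27 ± 0.19 (± SE, here and below; adjusted p = 2.60e-05) at day 14 and -1.02 ± 0.21 (adjusted p = 8.56e-04) at day 1. Whether the KO counts come from outside the removed part was not tested. Every adjusted p comes from edgeR's quasi-likelihood test with Benjamini-Hochberg adjustment over all genes tested. Library totals ran from 13847020 to 30102958 counts. Of 8 smooth muscle markers, Acta2 (276 to 1628 CPM as group means) and Cald1 (1026 to 1751) were abundant, but the defining markers Tagln, Myh11 and Myocd stayed under 1 CPM in every library and Cnn1 at or under 2.43 CPM. Smtn was lower in KO by mean at both days, at 52.3 CPM, against 87.4 in WT, at day 14 and 67.2, against 126, at day 1. Lmod1 averaged 0.628 to 11.3 CPM over the groups. The labelled cell type therefore had only part of its marker set, and the sums that follow are mostly Acta2 and Cald1. The summed markers of smooth muscle were 3212 to 3675 CPM in KO and 1868 to 2328 in WT at day 14, and 1921 to 1951 in KO and 1420 to 1448 in WT at day 1. Macrophage markers summed to 31.3 to 35.1 CPM in KO and 41.5 to 71.8 in WT at day 14, and to 43.5 to 56.1 in KO and 19.5 to 25.8 in WT at day 1, with Mrc1 at 0 in KO, Adgre1 and Cx3cr1 at 0 in WT day 14 and Ptprc at 0 in WT day 1. Cd68 made up most of the macrophage sum, at 30.7 CPM in KO and 57.9 in WT at day 14, and 48.6 and 21.9 at day 1. Csf1r went the other way at day 14, at 2.80 CPM in KO and 1.07 in WT. Adipocyte markers summed to 14.1 to 16.7 CPM in KO and 37.8 to 49.9 in WT at day 14, and to 28.9 to 42.5 in KO and 15.8 to 16.9 in WT at day 1. Pparg and Fabp4 made up most of this sum. Pparg averaged 7.16 CPM in KO and 27.7 in WT at day 14, and 24.7 and 16.2 at day 1. Fabp4 averaged 8.08 and 16.8 at day 14, and 9.39 and 0.198 at day 1. Adipoq, Plin1 and Cidec stayed under 1 CPM in every library, and Plin1 went the other way at day 14, at 0.275 CPM in KO and 0 in WT. Fibroblast markers summed to 91.6 to 98.3 CPM in KO and 80.3 to 114.7 in WT at day 14, and to 84.8 to 122.6 in KO and 179 to 187 in WT at day 1. At day 14 these fibroblast markers did not move together. Pdgfra averaged 75.8 CPM in KO and 33.3 in WT, but Cd34 7.53 and 39.3, Dcn 8.48 and 23.3, and Dpep1 0.366 and 5.55. Of the 4 tested at day 14, 1 was called higher in KO and 3 lower, beside 22.7% and 23.7% of all genes. Erythroid, endothelial, neural and skeletal muscle markers summed to at most 31.3 CPM in any library. In bulk RNA, fewer cells of a type and less RNA per cell cannot be told apart, and the part of these markers in the results below was not tested.

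WT day 14 replicate 1 stood apart from its group, with a chi-square per gene of 36.2 and 51.5 against the other replicates, where other replicate pairs gave 2.91 to 19.6. Day 14 calls of members, and list counts, are therefore also given without it. KO day 1 and WT day 14 resembled each other over all genes, with a median correlation of log2 CPM of 0.980 (0.975 to 0.988 over 9 pairs of libraries), against 0.937 to 0.949 between any other groups and 0.981 to 0.997 among replicates, so that the closest of these pairs were as alike as some replicates. The labels were taken as given, and every KO effect below depends on them. Nr4a3, which was lower in the libraries labelled KO at both days, is the check that was made of them, and whether any library is mislabelled was not tested further. Each day has its own count table, which may be a batch, and cannot be told apart from it.

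The promoters of 33 members were in the RefSeq table (build GRCm38.p6), and those of Slc2a3, Slc2a4, Bsg and Pdp1 were not. The 6 promoters below are those of the 4 members with the largest upward and the 2 with the largest downward difference between its KO effects at day 14 and day 1, among members in that table. Each line holds the 250 bases before the transcription start, 5′ to 3′ on the gene's strand. Capital letters mark ACGTG or GCGTG, the core of the hypoxia response element bound by HIF factors, or its reverse complement. Pdk1, a kinase that switches pyruvate dehydrogenase off, lies at chr2:71872974-71873223 on the plus strand. The others lie at chr10:78009808-78010057 on the minus strand (Pfkl, the liver-type phosphofructokinase), chr4:119108495-119108744 on the plus strand (Slc2a1, the glucose transporter GLUT1), chr7:46845554-46845803 on the plus strand (Ldha, a lactate dehydrogenase subunit), chr1:165461010-165461259 on the plus strand (Mpc2, a subunit of the mitochondrial pyruvate carrier) and chr6:5496279-5496528 on the minus strand (Pdk4, another kinase of pyruvate dehydrogenase).
Pdk1: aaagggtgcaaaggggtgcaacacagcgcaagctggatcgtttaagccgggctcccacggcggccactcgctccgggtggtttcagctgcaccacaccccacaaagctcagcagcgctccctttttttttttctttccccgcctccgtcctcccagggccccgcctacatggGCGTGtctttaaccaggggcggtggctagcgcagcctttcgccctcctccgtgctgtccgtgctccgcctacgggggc
Pfkl: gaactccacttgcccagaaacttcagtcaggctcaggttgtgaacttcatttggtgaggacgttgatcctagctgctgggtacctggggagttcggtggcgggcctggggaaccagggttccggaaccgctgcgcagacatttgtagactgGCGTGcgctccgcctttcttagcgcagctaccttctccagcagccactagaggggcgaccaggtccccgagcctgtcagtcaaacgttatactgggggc
Slc2a1: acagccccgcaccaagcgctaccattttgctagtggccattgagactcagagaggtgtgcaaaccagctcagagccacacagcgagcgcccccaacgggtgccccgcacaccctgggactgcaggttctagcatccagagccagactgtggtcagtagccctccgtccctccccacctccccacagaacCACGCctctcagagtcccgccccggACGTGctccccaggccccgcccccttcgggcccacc
Ldha: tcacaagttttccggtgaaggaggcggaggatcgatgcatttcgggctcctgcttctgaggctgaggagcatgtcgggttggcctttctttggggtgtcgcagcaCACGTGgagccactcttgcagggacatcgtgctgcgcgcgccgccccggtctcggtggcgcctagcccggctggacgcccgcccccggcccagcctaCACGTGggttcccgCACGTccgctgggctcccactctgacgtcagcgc
Mpc2: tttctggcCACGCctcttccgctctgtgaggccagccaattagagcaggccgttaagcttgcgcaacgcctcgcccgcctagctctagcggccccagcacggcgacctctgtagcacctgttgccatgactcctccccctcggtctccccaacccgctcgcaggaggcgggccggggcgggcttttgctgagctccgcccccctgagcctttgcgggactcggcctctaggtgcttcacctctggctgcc
Pdk4: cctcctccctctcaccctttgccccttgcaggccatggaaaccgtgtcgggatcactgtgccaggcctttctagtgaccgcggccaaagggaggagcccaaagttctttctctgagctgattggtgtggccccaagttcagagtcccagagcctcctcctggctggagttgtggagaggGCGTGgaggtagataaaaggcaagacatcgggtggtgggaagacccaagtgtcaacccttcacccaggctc

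All 6 promoters hold the core, 5 times in Ldha, where both strands of CACGTG count, 2 times in Slc2a1 and 1 time in each of the others, so Mpc2 and Pdk4, whose KO effect changed in the opposite direction, carry it as well. Searched on both strands over the 250 bases before each start, ACGTG or GCGTG occurred in 29 of the 33 member genes (87.9%), in 41.5% of all 27025 genes of the table and in 59.5% of its 10792 genes that were tested. A gene counted if any of its promoter entries held the motif, and the 33 members have 50 entries. By entry it occurred in 78% of member promoters and 38.6% of all 32851. Pdk1 and Ldha have 2 entries each, of which the first is printed above. The core was present in 18 of the 22 members whose KO effect changed upwards by the test and in 11 of the 11 others. CACGTG, the E-box, which can overlap ACGTG, occurred in 6 of the 33 member genes and 6.86% of all genes, and Ldha holds it 2 times. AAAGGTCA, the element that NR4A receptors bind as monomers, occurred in 1 of the 33 member genes, Eno1, and in 1.55% of all genes. These are matches of letters, which show neither binding nor its absence.

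By the median of the members, the knockout differed from wild type in opposite directions at the 2 days. At day 14, 11 of 35 tested members were called higher in KO, 5 lower and 19 not at all (adjusted p below 0.05). In that comparison 22.7% of all 14902 genes tested were called higher and 23.7% lower, 46.4% either way. Members were thus called at day 14 about as often as other genes. The median log2 fold change of the members was 0.28, beside -0.00 for all genes. Without WT day 14 replicate 1, 17 of 36 tested members were called higher and 8 lower, beside 30.0% and 30.7% of all genes. At day 1, 5 of 37 members were called higher in KO and 27 lower, and 30.6% and 30.2% of all 15365 genes were called higher and lower, 60.8% either way. Their median was -0.75, beside 0.01 for all genes. All 11 members called higher at day 14 were among the 27 called lower at day 1 (100% and 40.7% of these lists). Over all genes, 1878 of the 3383 called higher at day 14 were called lower at day 1 (55.5%, and 40.5% of the 4636 called lower). The comparisons of the days share no library.

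The test of the difference itself, KO against WT at day 14 minus day 1 over 12 libraries, called 24 members higher and 5 lower of 37, beside 29.5% and 30.5% of 15973 genes, 60.1% either way. The median change was 0.88 for the members and -0.01 for all genes. Without WT day 14 replicate 1 the counts were 26 and 6, beside 31.2% and 32.7% of all genes. Summed over the 37 members, the CPM level was 9692 ± 570 in KO, against 7370.0 ± 290 in WT, at day 14, and 5992 ± 372 in KO, against 12929 ± 136 in WT, at day 1. The sum was highest in WT day 1, next in KO day 14, then in WT day 14 and lowest in KO day 1, and the groups did not overlap. Pkm was its largest part in every group. In 23 of 37 members both the KO day 14 and the WT day 1 mean lay above both the WT day 14 and the KO day 1 mean, where 26.0% of all tested genes had that order. For 4 members, Hk2, Ldhb, Mpc2 and Pdk4, the order was the opposite, as for 27.2% of all genes.

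**Figure D1:**
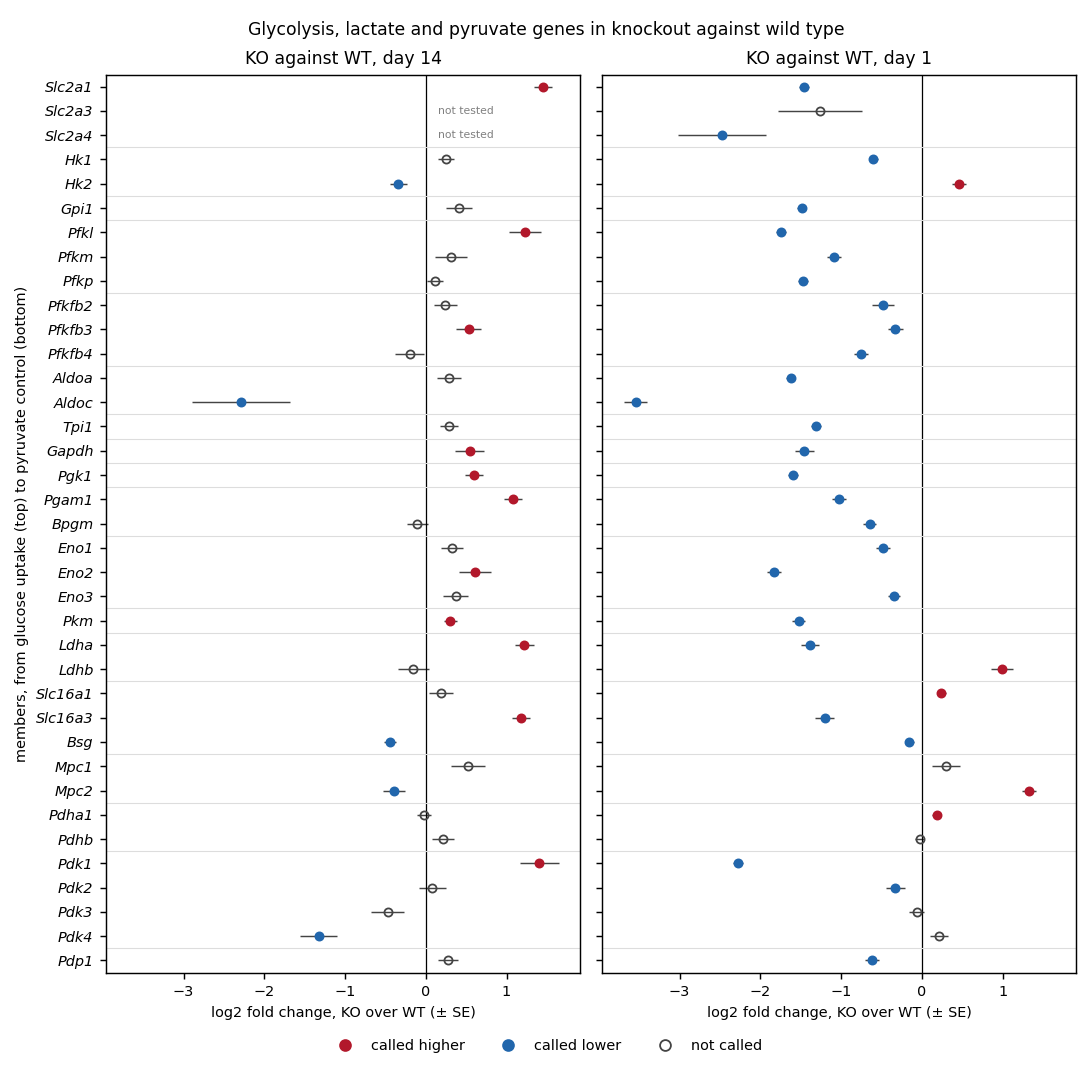
Log2 fold change of KO over WT at day 14 (left) and day 1 (right) for each member, with the standard error as a bar. Red points were called higher in KO, blue points lower and open points not called. At day 1 most points lie left of 0 (27 called lower), and at day 14 the called points are mostly on the right (11 called higher, 5 lower).

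By position in the pathway, the fall at day 1 took in nearly every glycolytic enzyme. Of the 17 enzymes from hexokinase to pyruvate kinase, 16 were called lower in KO at day 1 and 1, Hk2, higher, with a median log2 fold change of -1.45, where 30.2% of all genes were called lower and 30.6% higher. At day 14, 6 of the 17 were called higher and 2 lower, with a median of 0.31, where 22.7% of all genes were called higher and 23.7% lower. Of the 9 genes that handle pyruvate in mitochondria, 2 were called higher and 3 lower at day 1, with a median of -0.03, and 1 higher and 2 lower at day 14, with a median of 0.08, where 60.8% and 46.4% of all genes were called either way. Without WT day 14 replicate 1, Gpi1, Eno1 and Eno3 were also called higher among the 17 enzymes. Among the mitochondrial genes Pdhb was then also called higher and Pdk3 lower. That fit called 30.0% of all genes higher and 30.7% lower. The summed CPM of the 17 enzymes was 6395 ± 368 in KO, against 4988 ± 332 in WT, at day 14, and 3839 ± 296 in KO, against 9762 ± 95.2 in WT, at day 1. Pkm and Aldoa were the largest parts of this sum. Pkm averaged 2134 CPM in KO and 1715 in WT at day 14, and 1319 and 3820 at day 1. Aldoa, which was not called at day 14, averaged 1007 and 820 there, and 520 and 1616 at day 1.

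Scaling by library size alone set the median log2 fold change of all genes to -0.22 in the change of the KO effect, to 0.14 at day 1 and to -0.07 at day 14, where TMM gave -0.01, 0.01 and -0.00. With it the share of calls that were higher was 61.7% at day 1, against 50.4% with TMM, and 37.9% in the change of the KO effect, against 49.2%. Member values below use TMM, and a value with ± in parentheses is a log2 fold change with its SE unless another quantity is named. CPM are on the scaling of all 12 libraries, so that their ratio can differ slightly from the fold change of a day's own fit.

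Of the 3 glucose transporters followed, only Slc2a1, which encodes the widely expressed GLUT1, was above 2 CPM in any library. Its level in replicates 1, 2 and 3 was 264, 222 and 234 CPM in KO libraries, against 83.9, 80.5 and 96.8 CPM in WT libraries, at day 14. At day 1 Slc2a1 stood at 64.7, 73.1 and 64.6 CPM in KO libraries, against 188, 181 and 191 CPM in WT libraries. The KO libraries were highest at day 14 and lowest at day 1, and no groups compared within a day overlapped. The log2 fold change was 1.45 ± 0.11, adjusted p = 1.41e-05 at day 14 (1.40 without WT day 14 replicate 1) and -1.46 ± 0.06, adjusted p = 7.21e-10 at day 1, and the effects of the days differed by 2.93 ± 0.13, adjusted p = 5.58e-11.

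The other glucose transporters were near the detection limit. Slc2a4, the insulin-responsive GLUT4, stood at 0.730, 0.565 and 0.971 CPM in KO libraries, against 0.450, 0.419 and 0 CPM in WT libraries, at day 14. At day 1 Slc2a4 stood at 0.0555, 0.389 and 0.146 CPM in KO libraries, against 0.881, 1.45 and 0.991 CPM in WT libraries. With all libraries it was too low for the test at day 14. Without WT replicate 1 it passed the filter through the KO libraries (12, 8 and 18 counts), with 6 and 0 counts in the remaining WT libraries. The log2 fold change was then 2.02, and that call, included in the count of members above, is not read as support. Slc2a4 was called lower in KO at day 1 (-2.47 ± 0.55, adjusted p = 0.00161), on 11 counts in the 3 KO libraries and 87 in the 3 WT libraries. There it passed the filter through the WT libraries. The day 1 call and the change of the KO effect on Slc2a4, both included in the counts of members, are not read as support either. Slc2a3, the neuronal-type GLUT3, had 1 count in KO and 8 in WT at day 14, summed over 3 libraries, and 17 in KO and 57 in WT at day 1, and its difference at day 1 was not called (adjusted p = 0.051). Slc2a1 took 99.7% of the summed CPM of these transporters in KO and 99.5% in WT at day 14, and 99.3% in KO and 99.0% in WT at day 1. The KO and WT libraries overlapped in that share at both days. With Slc2a6, Slc2a8, Slc2a10 and Slc2a12 added to the total the share of Slc2a1 was 89.6% in KO and 84% in WT at day 14, and 79.2% in KO and 90.4% in WT at day 1.

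Hexokinases trap glucose as glucose-6-phosphate, and the isoenzymes moved in opposite directions. Hk1, the housekeeping form, stood at 226, 257 and 234 CPM in KO libraries, against 177, 212 and 207 CPM in WT libraries, at day 14. At day 1 Hk1 stood at 174, 168 and 155 CPM in KO libraries, against 256, 253 and 248 CPM in WT libraries. Hk2, the inducible form of muscle, averaged 146 ± 10.1 CPM in KO libraries, against 183 ± 22.3 CPM in WT libraries, at day 14. At day 1 Hk2 averaged 153 ± 18.1 CPM in KO libraries, against 112 ± 6.56 CPM in WT libraries. Hk1 was lower in KO at day 1 (-0.60 ± 0.06, adjusted p = 1.45e-06) and was not called at day 14 (0.25 ± 0.10, adjusted p = 0.062). Hk2 was higher in KO at day 1 (0.46 ± 0.08, adjusted p = 3.10e-04) and lower at day 14 (-0.34 ± 0.11, adjusted p = 0.0265; -0.26 without WT replicate 1), a day 14 call lost without KO replicate 2 or 3 (adjusted p up to 0.101). Both changes of the KO effect were called, upwards for Hk1 (0.87 ± 0.12, adjusted p = 1.07e-05) and downwards for Hk2 (-0.78 ± 0.14, adjusted p = 2.57e-04).

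As a share of the summed hexokinase CPM, Hk2 made up 37.9% ± 3.01 in KO and 48.0% ± 5.39 in WT at day 14, and 47.9% ± 1.80 in KO and 30.7% ± 1.09 in WT at day 1. Its share was highest in WT day 14 and KO day 1, lower in KO day 14 and lowest in WT day 1. KO and WT did not overlap at either day, with an exact two-sided permutation p of 0.1, the smallest that 3 against 3 libraries can give. Of 84 such tests on 21 genes of 10 families, 63 reached that p, and after adjustment over the 84 the smallest p was 0.133, so that no share passed a threshold of 0.05 and shares are given as descriptions.

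Gpi1, which turns glucose-6-phosphate into fructose-6-phosphate, stood at 550.2, 514 and 519.6 CPM in KO libraries, against 290.3, 415 and 474 CPM in WT libraries, at day 14. At day 1 Gpi1 stood at 294, 282 and 282 CPM in KO libraries, against 779, 824 and 822 CPM in WT libraries. It was lower in KO at day 1 (-1.49 ± 0.05, adjusted p = 1.30e-10). At day 14 it was not called with all libraries (0.41 ± 0.16, adjusted p = 0.0613) and was called higher in KO without WT replicate 1, the lowest of its group (0.22, adjusted p = 0.0151).

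Phosphofructokinase commits the sugar to glycolysis, and its subunits did not keep their proportions. Pfkl, the liver-type subunit, stood at 321, 308 and 311 CPM in KO libraries, against 88.3, 144 and 165 CPM in WT libraries, at day 14. At day 1 Pfkl stood at 62.6, 59.0 and 57.3 CPM in KO libraries, against 203, 199.8 and 199 CPM in WT libraries. It was 2.35-fold higher in KO at day 14 (1.23 ± 0.20, adjusted p = 9.91e-04; 0.99 without WT replicate 1) and 3.35-fold lower at day 1 (-1.74 ± 0.06, adjusted p = 6.57e-11). KO day 14 libraries lay above all others and KO day 1 libraries below all others. The KO effects differed by 2.99 ± 0.22, adjusted p = 1.53e-08.

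Pfkm, the muscle-type subunit, stood at 110.1, 105 and 107 CPM in KO libraries, against 56.7, 96.0 and 104 CPM in WT libraries, at day 14. At day 1 Pfkm stood at 73.9, 59.6 and 77.2 CPM in KO libraries, against 152, 149 and 151 CPM in WT libraries. Pfkp, the platelet-type subunit, stood at 105, 94.3 and 86.7 CPM in KO libraries, against 90.4, 84.8 and 87.0 CPM in WT libraries, at day 14. At day 1 Pfkp stood at 91.9, 87.8 and 83.1 CPM in KO libraries, against 236, 255 and 245 CPM in WT libraries. Both were lower in KO at day 1 (-1.09 ± 0.08 and -1.48 ± 0.06, adjusted p = 1.38e-07 and 3.62e-10) and neither was called at day 14 (0.31 ± 0.20 and 0.12 ± 0.10). Pfkp lay within 83.1 to 105 CPM in all libraries of KO day 14, WT day 14 and KO day 1, and the WT day 1 libraries stood above them.

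Pfkl made up 60.8% ± 0.880 of phosphofructokinase CPM in KO and 42.8% ± 4.62 in WT at day 14, and 27.4% ± 1.13 in KO and 33.7% ± 0.630 in WT at day 1. Pfkp made up 18.5% ± 1.22 in KO and 29.6% ± 7.62 in WT at day 14, and 40.3% ± 2.18 in KO and 41.1% ± 1.16 in WT at day 1. In WT day 14 the Pfkp share was 38.4, 26.1 and 24.5% by replicate, so replicate 1 stood above the other libraries of its group. With CPM divided by exon length the Pfkl shares were 59.2% in KO and 41.5% in WT at day 14, and 26.8% in KO and 33.4% in WT at day 1, in the same order of groups. On that scale Pfkl had the largest mean share in KO day 14 and WT day 14, Pfkm in KO day 1 (39.1%) and Pfkp in WT day 1 (35.4%).

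The PFKFB enzymes set the level of fructose-2,6-bisphosphate, the main activator of phosphofructokinase. Pfkfb3, the form with the strongest kinase activity, stood at 82.2, 73.0 and 74.7 CPM in KO libraries, against 40.0, 57.2 and 60.8 CPM in WT libraries, at day 14. At day 1 Pfkfb3 stood at 39.5, 41.3 and 49.0 CPM in KO libraries, against 50.7, 58.1 and 55.1 CPM in WT libraries. It was higher in KO at day 14 (0.53 ± 0.15, adjusted p = 0.0196; 0.35 without WT replicate 1), a call lost without KO replicate 1 or 3 (adjusted p up to 0.0755). At day 1 it was lower in KO (-0.33 ± 0.09, adjusted p = 0.00603), a call lost with scaling by library size alone (adjusted p = 0.0507). Pfkfb2 averaged 10.2 to 14.9 CPM and Pfkfb4 28.2 to 47.9 CPM over the 4 groups, and neither was called at day 14 with all libraries. Pfkfb4 was called lower in KO at day 14 without WT replicate 1 (-0.41, adjusted p = 0.00239). Both were lower in KO at day 1 (-0.48 ± 0.14 and -0.75 ± 0.09 for Pfkfb2 and Pfkfb4, adjusted p = 0.00966 and 7.15e-06). Pfkfb3 took 62.1% ± 1.17 of PFKFB CPM in KO and 51.9% ± 1.16 in WT at day 14, and 52.9% ± 4.72 in KO and 46.8% ± 1.74 in WT at day 1.

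Aldolase splits the sugar into a pair of trioses, and Aldoa, the muscle and widely expressed form, held over 98% of its CPM in every library. Aldoa stood at 1083, 973 and 965 CPM in KO libraries, against 627, 863 and 969 CPM in WT libraries, at day 14. At day 1 Aldoa stood at 538, 515 and 508 CPM in KO libraries, against 1546, 1619 and 1682 CPM in WT libraries. Aldoc, the brain form, stood at 0.548, 0.918 and 1.02 CPM in KO libraries, against 1.10, 5.03 and 6.09 CPM in WT libraries, at day 14. At day 1 Aldoc stood at 2.05, 2.06 and 1.46 CPM in KO libraries, against 21.7, 22.0 and 21.5 CPM in WT libraries. Aldoa was lower in KO at day 1 (-1.63 ± 0.06, adjusted p = 7.96e-11) and was not called at day 14 (0.28 ± 0.15, adjusted p = 0.152). Aldoc was lower in KO at both days, with a log2 fold change of -2.29 ± 0.60 at day 14 (adjusted p = 0.0129; -2.77 without WT replicate 1) and -3.55 ± 0.15 at day 1 (adjusted p = 4.17e-10). The day 14 call was lost without KO replicate 1 (adjusted p = 0.064). With all libraries only Aldoc and Bsg of the 37 members were called lower at both days. Its share was 0.0836% ± 0.0293 in KO and 0.459% ± 0.247 in WT at day 14, and 0.355% ± 0.0596 in KO and 1.33% ± 0.0629 in WT at day 1.

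Tpi1, which interconverts the trioses, stood at 879, 736 and 730.2 CPM in KO libraries, against 561, 647 and 699 CPM in WT libraries, at day 14. At day 1 Tpi1 stood at 469, 458 and 410.4 CPM in KO libraries, against 1101, 1128 and 1116 CPM in WT libraries. It was lower in KO at day 1 (-1.32 ± 0.06, adjusted p = 1.10e-09) and not called at day 14 (0.29 ± 0.11, adjusted p = 0.0686). Gapdh, the dehydrogenase that makes the pathway's NADH, stood at only 29.7, 27.6 and 31.1 CPM in KO libraries, against 14.6, 24.0 and 21.7 CPM in WT libraries, at day 14. At day 1 Gapdh stood at 13.2, 13.7 and 18.3 CPM in KO libraries, against 41.3, 39.8 and 44.2 CPM in WT libraries. Per kilobase of exon Gapdh reached 27.9 CPM in WT day 1, where Tpi1 reached 632, and the mouse genome is known to hold many processed copies of Gapdh, so its level here is uncertain. The gene was higher in KO at day 14 (0.54 ± 0.18, adjusted p = 0.0337; 0.34 without WT replicate 1) and lower at day 1 (-1.45 ± 0.12, adjusted p = 2.15e-07). The day 14 call was lost without any of the 3 KO replicates and with scaling by library size alone (adjusted p up to 0.117).

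Pgk1, the kinase that yields the first ATP of glycolysis, stood at 317, 272 and 261 CPM in KO libraries, against 181, 168 and 209 CPM in WT libraries, at day 14. At day 1 Pgk1 stood at 191, 169.9 and 169 CPM in KO libraries, against 529, 556 and 520.3 CPM in WT libraries. It was higher in KO at day 14 (0.59 ± 0.11, adjusted p = 0.00257; 0.55 without WT replicate 1) and lower at day 1 (-1.59 ± 0.06, adjusted p = 2.88e-10). The copy Pgk1-rs7 took 0.833% to 2.14% of the Pgk1 counts in each library. WT day 1 stood apart from the other groups, which lay between 168 and 317 CPM.

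Phosphoglycerate mutase moves the phosphate group before enolase, and Pgam1, its main form outside muscle, stood at 149, 133 and 127 CPM in KO libraries, against 55.7, 68.4 and 68.3 CPM in WT libraries, at day 14. At day 1 Pgam1 stood at 51.4, 59.5 and 46.4 CPM in KO libraries, against 101, 114 and 107 CPM in WT libraries. It was 2.11-fold higher in KO at day 14 (1.08 ± 0.11, adjusted p = 9.44e-05; 0.97 without WT replicate 1) and 2.04-fold lower at day 1 (-1.03 ± 0.09, adjusted p = 3.70e-07). Bpgm, which makes and removes 2,3-bisphosphoglycerate, averaged 19.9 ± 1.24 CPM in KO libraries, against 21.2 ± 2.63 CPM in WT libraries, at day 14. At day 1 Bpgm averaged 26.6 ± 0.916 CPM in KO libraries, against 42.0 ± 2.76 CPM in WT libraries. Bpgm was lower in KO at day 1 (-0.65 ± 0.08, adjusted p = 1.37e-05) and was not called at day 14 (-0.10 ± 0.13, adjusted p = 0.553). Of their summed CPM Pgam1 took 87.2% ± 0.887 in KO and 75.0% ± 3.53 in WT at day 14, and 66.2% ± 2.15 in KO and 71.8% ± 2.42 in WT at day 1. KO and WT did not overlap at either day, and the KO share was the higher at day 14 and the lower at day 1.

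Enolase makes phosphoenolpyruvate, and at day 1 Eno2 had the largest fall of its 3 genes. Eno1, the ubiquitous form, stood at 296, 273 and 271 CPM in KO libraries, against 276, 187 and 203 CPM in WT libraries, at day 14. At day 1 Eno1 stood at 218, 242 and 184 CPM in KO libraries, against 297, 297 and 311 CPM in WT libraries. Eno2, the neuronal form, stood at 80.5, 65.0 and 74.2 CPM in KO libraries, against 32.5, 53.7 and 57.0 CPM in WT libraries, at day 14. At day 1 Eno2 stood at 35.3, 30.1 and 40.2 CPM in KO libraries, against 127, 126 and 127 CPM in WT libraries. At day 1 all 3 were lower in KO, with a log2 fold change of -1.83 ± 0.09 for Eno2, -0.48 ± 0.08 for Eno1 and -0.34 ± 0.07 for Eno3, the muscle form (adjusted p = 1.62e-09, 2.18e-04 and 0.00147). At day 14 Eno2 was higher in KO (0.61 ± 0.20, adjusted p = 0.0314; 0.37 without WT replicate 1), a call lost without any of the 3 KO replicates (adjusted p up to 0.111).

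Eno1 and Eno3 were not called at day 14 with all libraries (0.32 ± 0.14 and 0.37 ± 0.16, adjusted p = 0.0852 and 0.0833). Without WT replicate 1 both were called higher in KO (0.49 and 0.57, adjusted p = 1.47e-05 and 5.24e-06). The copy Eno1b had 0.921 to 1.08 times the counts of Eno1 in each library, so that reads of the pair may be divided between them. Eno3 had 0.717 to 1.00 times the counts of Eno1, and the levels of both are uncertain. Eno2 made up 12.7% ± 0.833 of the CPM of the 3 genes in KO and 11.4% ± 4.49 in WT at day 14, and 7.78% ± 1.94 in KO and 18.2% ± 0.203 in WT at day 1. At day 14 the Eno2 share was 13, 11.8 and 13.4% in KO and 6.18, 13.9 and 14% in WT by replicate, so that without WT replicate 1 it was the lower in KO. With Eno1b added to Eno1 these mean shares were 8.45% and 7.57% at day 14 and 5.19% and 12.9% at day 1, in the same order of groups.

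Pkm, the pyruvate kinase of tissues outside liver and red cells, had the highest mean CPM per kilobase of exon of all members in every group. It stood at 2252, 2079 and 2070.1 CPM in KO libraries, against 1739, 1715 and 1693 CPM in WT libraries, at day 14. At day 1 Pkm stood at 1378, 1456 and 1123 CPM in KO libraries, against 3853, 3756 and 3851 CPM in WT libraries. It was slightly higher in KO at day 14 (0.30 ± 0.08, adjusted p = 0.013; 0.29 without WT replicate 1) and 2.88-fold lower at day 1 (-1.53 ± 0.08, adjusted p = 4.89e-09). Counts per gene do not tell its M1 and M2 splice forms apart. WT day 1 libraries lay above all others, and those of KO day 1 below all others.

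**Figure D2:**
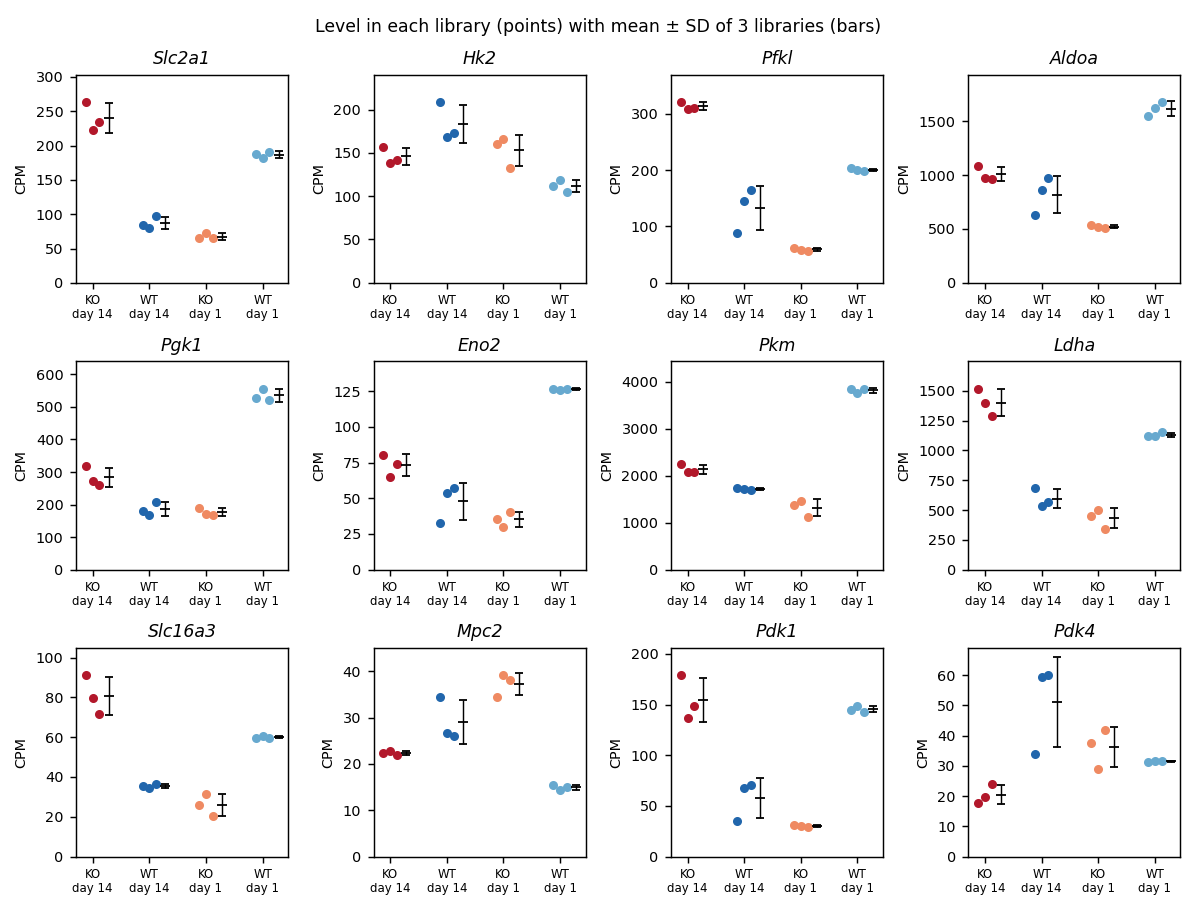
CPM in each library for 12 members, with the mean and SD of 3 libraries beside the points, in the order KO day 14, WT day 14, KO day 1 and WT day 1. Slc2a1, Pfkl, Ldha, Slc16a3 and Pdk1 are highest in KO day 14 by mean, Aldoa, Pgk1, Eno2 and Pkm in WT day 1. Mpc2 is highest in KO day 1, and Hk2 and Pdk4 in WT day 14.

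Lactate dehydrogenase turns pyruvate into lactate, and its subunits moved apart. Ldha, the subunit of lactate-making tissues, stood at 1518, 1394 and 1286 CPM in KO libraries, against 687, 532 and 570.3 CPM in WT libraries, at day 14. At day 1 Ldha stood at 451, 502 and 338 CPM in KO libraries, against 1118, 1121 and 1152 CPM in WT libraries. It was 2.33-fold higher in KO at day 14 (1.22 ± 0.12, adjusted p = 5.49e-05; 1.31 without WT replicate 1) and 2.61-fold lower at day 1 (-1.39 ± 0.11, adjusted p = 1.83e-07), and the effects differed by 2.62 ± 0.18, adjusted p = 7.42e-09. Ldhb, the heart-type subunit, averaged 14.8 ± 0.234 CPM in KO libraries, against 16.3 ± 4.41 CPM in WT libraries, at day 14. At day 1 Ldhb averaged 16.6 ± 2.89 CPM in KO libraries, against 8.41 ± 0.362 CPM in WT libraries. It was higher in KO at day 1 (0.99 ± 0.14, adjusted p = 3.82e-05) and was not called at day 14 with all libraries (-0.15 ± 0.19, adjusted p = 0.541). Without WT replicate 1 it was called lower there (-0.35, adjusted p = 0.0371). Its KO effect was lower at day 14 than at day 1 (-1.12 ± 0.25, adjusted p = 0.00114).

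Ldhb was a minor part of the summed CPM in every group, at 1.05% ± 0.0887 in KO and 2.72% ± 0.900 in WT at day 14, and 3.87% ± 1.37 in KO and 0.739% ± 0.0296 in WT at day 1. KO and WT did not overlap at either day, with the lower Ldhb share in KO at day 14 and the higher in KO at day 1 (exact permutation p = 0.1 at each day).

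Monocarboxylate transporters carry lactate across the membrane, Slc16a3 (MCT4) mainly out of glycolytic cells and Slc16a1 (MCT1) in either direction. Slc16a3 stood at 91.0, 79.6 and 71.7 CPM in KO libraries, against 35.6, 34.6 and 36.2 CPM in WT libraries, at day 14. At day 1 Slc16a3 stood at 25.9, 31.4 and 20.4 CPM in KO libraries, against 59.8, 60.4 and 59.5 CPM in WT libraries. It was 2.26-fold higher in KO at day 14 (1.17 ± 0.11, adjusted p = 5.01e-05; 1.16 without WT replicate 1) and 2.3-fold lower at day 1 (-1.20 ± 0.12, adjusted p = 1.56e-06). Slc16a1 averaged 234 ± 0.139 CPM in KO libraries, against 204 ± 49.0 CPM in WT libraries, at day 14. At day 1 Slc16a1 averaged 257 ± 12.6 CPM in KO libraries, against 219 ± 5.32 CPM in WT libraries. It was slightly higher in KO at day 1 (0.24 ± 0.06, adjusted p = 0.00215), a call lost in the fit of all 12 libraries (adjusted p = 0.113), and was not called at day 14 (0.19 ± 0.15, adjusted p = 0.332) unless WT replicate 1 was left out (0.38, adjusted p = 1.76e-04).

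Between days the KO effect changed by 2.40 ± 0.18 for Slc16a3 (adjusted p = 2.05e-08) and -0.03 ± 0.17 for Slc16a1 (adjusted p = 0.872). Slc16a3 made up 25.6% ± 2.29 of their summed CPM in KO and 15.2% ± 2.76 in WT at day 14, and 9.18% ± 2.07 in KO and 21.5% ± 0.445 in WT at day 1. The share was lowest in KO day 1, and no groups overlapped within a day. Bsg, the chaperone that brings both transporters to the membrane, stood at 632, 587 and 594 CPM in KO libraries, against 800.1, 835 and 808 CPM in WT libraries, at day 14. At day 1 Bsg stood at 736, 711 and 679.7 CPM in KO libraries, against 767, 805 and 807 CPM in WT libraries. It was lower in KO at day 14 (-0.44 ± 0.08, adjusted p = 0.00173; -0.47 without WT replicate 1) and by a small amount at day 1 (-0.15 ± 0.05, adjusted p = 0.0243), a call lost without WT replicate 2 or 3 and with scaling by library size alone (adjusted p up to 0.644).

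Among the genes that take pyruvate into mitochondria, Mpc2 differed in the direction opposite to most glycolytic enzymes. Mpc2 stood at 22.3, 22.7 and 22.0 CPM in KO libraries, against 34.5, 26.6 and 26.0 CPM in WT libraries, at day 14. At day 1 Mpc2 stood at 34.5, 39.1 and 38.1 CPM in KO libraries, against 15.4, 14.3 and 15.1 CPM in WT libraries. It was 2.51-fold higher in KO at day 1 (1.33 ± 0.09, adjusted p = 3.77e-08) and lower at day 14 (-0.39 ± 0.13, adjusted p = 0.038; -0.27 without WT replicate 1), where the call was lost without any of the 3 KO replicates (adjusted p up to 0.115). The change of the KO effect was -1.70 ± 0.16, adjusted p = 2.86e-07. Mpc1, its partner in the carrier, averaged 3.81 to 6.22 CPM and was called in neither comparison (0.52 ± 0.21 at day 14 and 0.30 ± 0.17 at day 1), but the copy Mpc1-ps had 2.56 to 4.72 times its counts, so its level is uncertain.

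The subunits of pyruvate dehydrogenase itself differed by less than 0.3 on the log2 scale between KO and WT with all libraries. Pdha1, its catalytic alpha subunit, stood at 229, 205 and 197 CPM in KO libraries, against 219, 212 and 204 CPM in WT libraries, at day 14. At day 1 Pdha1 stood at 259, 247 and 272 CPM in KO libraries, against 230.2, 234 and 225 CPM in WT libraries. It was slightly higher in KO at day 1 (0.18 ± 0.06, adjusted p = 0.0118), a call lost in the fit of all 12 libraries and without WT replicate 1 or 3 (adjusted p up to 0.0767), and was not called at day 14 (-0.02 ± 0.09, adjusted p = 0.853). Pdhb, the beta subunit, averaged 90.5 to 125 CPM over the groups and was called at neither day with all libraries (0.22 ± 0.13 at day 14 and -0.03 ± 0.06 at day 1), and without WT replicate 1 it was called higher in KO at day 14 (0.36, adjusted p = 8.42e-04).

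The kinases of pyruvate dehydrogenase held the largest difference in isoform share between KO and WT among the 10 families, at either day. Pdk1 stood at 179, 137 and 149 CPM in KO libraries, against 35.2, 68.0 and 70.6 CPM in WT libraries, at day 14. At day 1 Pdk1 stood at 31.0, 29.6 and 28.9 CPM in KO libraries, against 145, 149 and 143 CPM in WT libraries. It was 2.65-fold higher in KO at day 14 (1.41 ± 0.24, adjusted p = 0.0014; 1.13 without WT replicate 1) and 4.85-fold lower at day 1 (-2.28 ± 0.06, adjusted p = 1.42e-11). KO day 1 libraries lay below all others, and the KO effects differed by 3.71 ± 0.27, adjusted p = 1.27e-08.

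Pdk4, the form tied to fasting and fat oxidation, stood at 17.6, 19.8 and 23.9 CPM in KO libraries, against 33.8, 59.5 and 59.9 CPM in WT libraries, at day 14. At day 1 Pdk4 stood at 37.5, 29.0 and 41.9 CPM in KO libraries, against 31.2, 31.5 and 31.6 CPM in WT libraries. It was lower in KO at day 14 (-1.33 ± 0.22, adjusted p = 0.00132; -1.57 without WT replicate 1), where the groups did not overlap, and was not called at day 1 (0.21 ± 0.11, adjusted p = 0.12), where they did. The KO effects on Pdk4 differed by -1.52 ± 0.27, adjusted p = 1.87e-04. Pdk2 averaged 8.90 to 11.2 CPM and Pdk3 28.6 to 40.7 CPM over the groups. Pdk2 was lower in KO at day 1 (-0.33 ± 0.12, adjusted p = 0.0265), a call lost under 6 of the alternatives, among them DESeq2 (adjusted p up to 0.143). Pdk3 was called at neither day with all libraries, and without WT replicate 1 it was called lower in KO at day 14 (-0.72, adjusted p = 2.20e-06).

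Of the summed CPM of the 4 kinases, Pdk1 made up 71.9% ± 3.36 in KO and 36.1% ± 1.82 in WT at day 14, and 28.9% ± 2.27 in KO and 66.7% ± 1.00 in WT at day 1. Pdk4 made up 9.61% ± 1.94 in KO and 32.2% ± 0.435 in WT at day 14, and 34.8% ± 4.29 in KO and 14.4% ± 0.102 in WT at day 1. Pdk3 made up 13.8% ± 0.955 in KO and 25.6% ± 0.257 in WT at day 14, and 27.7% ± 2.81 in KO and 13.8% ± 0.732 in WT at day 1. The Pdk1 share was high in KO day 14 and WT day 1 and low in WT day 14 and KO day 1, with no overlap between KO and WT at either day. In WT day 14 the Pdk1 share was 34.0, 36.8 and 37.4% by replicate, so that replicate 1, whose Pdk1 and Pdk4 levels were both the lowest of the group, had shares near those of the other libraries. Divided by exon length, the Pdk1 shares were 55.0% in KO and 22.4% in WT at day 14, and 17.2% in KO and 49.8% in WT at day 1. On that scale Pdk1 had the largest mean share in KO day 14 and WT day 1, and Pdk3 in WT day 14 (39.1%) and KO day 1 (40.3%).

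Pdp1, the phosphatase that reactivates pyruvate dehydrogenase, stood at 41.6, 36.7 and 40.1 CPM in KO libraries, against 28, 34.0 and 35.1 CPM in WT libraries, at day 14. At day 1 Pdp1 stood at 37, 34.8 and 43.0 CPM in KO libraries, against 63.3, 54.6 and 59.9 CPM in WT libraries. Pdp1 was lower in KO at day 1 (-0.62 ± 0.09, adjusted p = 5.09e-05) and was not called at day 14 (0.28 ± 0.12, adjusted p = 0.0892).

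**Figure D3:**
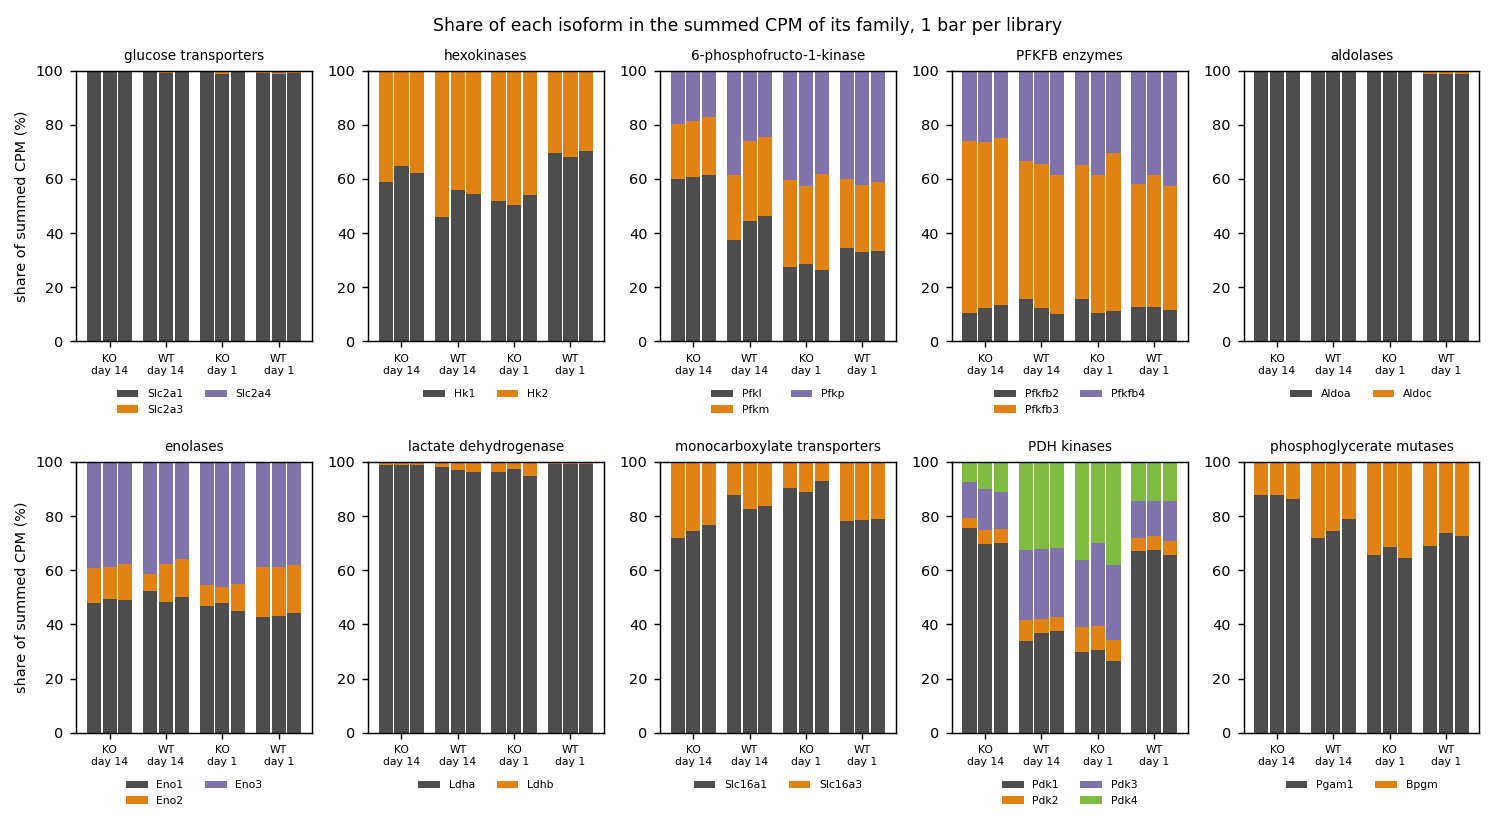
Share of each isoform in the summed CPM of its family, as 1 stacked bar per library, grouped as KO day 14, WT day 14, KO day 1 and WT day 1. In the panel of the pyruvate dehydrogenase kinases Pdk1 takes 71.9% and 66.7% on average in KO day 14 and WT day 1, against 36.1% and 28.9% in WT day 14 and KO day 1. In the phosphofructokinase panel Pfkl takes 60.8% in KO day 14 and 27.4% in KO day 1.

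Within each genotype the members moved in opposite directions between the days. In KO, 19 of 37 members were called higher and 6 lower at day 14 than at day 1, where 26.9% and 27.9% of all genes were, 54.8% either way, and the median log2 fold change was 0.41. The 6 include Slc2a3, which had 1 count in KO at day 14. Among the 19 are Slc2a4, on 38 counts at day 14 and 11 at day 1, and Eno1. The call of Slc2a4 was lost under 5 of 12 alternatives and that of Eno1 under 3 of 14 (adjusted p up to 0.132 and 0.0746). In WT, 5 were called higher and 25 lower at day 14 than at day 1, where 25.8% and 26.1% of all genes were, 51.9% either way, and the median was -0.74. Without WT day 14 replicate 1 the counts in WT were again 5 and 25, beside 27.4% and 27.7% of all genes. The 25 with all libraries include Slc2a3 (8 counts at day 14 and 57 at day 1) and Slc2a4 (15 and 87). They also include Pfkfb4, a call lost under 7 of 14 alternatives, among them leaving out that library (adjusted p up to 0.141). With scaling by library size alone, 62.7% of all calls in WT were higher at day 14, against 49.7% with TMM. The log2 fold change of Pfkl, day 14 over day 1, was 2.39 ± 0.16 in KO and -0.60 ± 0.15 in WT (adjusted p = 9.45e-09 and 0.00377). In WT it was -0.36 without WT day 14 replicate 1. Pfkp was not called in KO (0.12 ± 0.08, adjusted p = 0.204) and was lower at day 14 in WT (-1.49 ± 0.08, adjusted p = 1.24e-09). Hk2, Ldhb, Mpc2, Pdk3 and Pdk4 were the 5 members called higher at day 14 in WT, of which Pdk3 was lost without WT day 14 replicate 2 or 3 or any WT day 1 replicate (adjusted p up to 0.149). Bpgm was lower at day 14 in both genotypes (-0.42 ± 0.11 in KO and -0.99 ± 0.10 in WT, adjusted p = 0.00383 and 1.76e-06). Day and table cannot be told apart here.

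**Figure D4:**
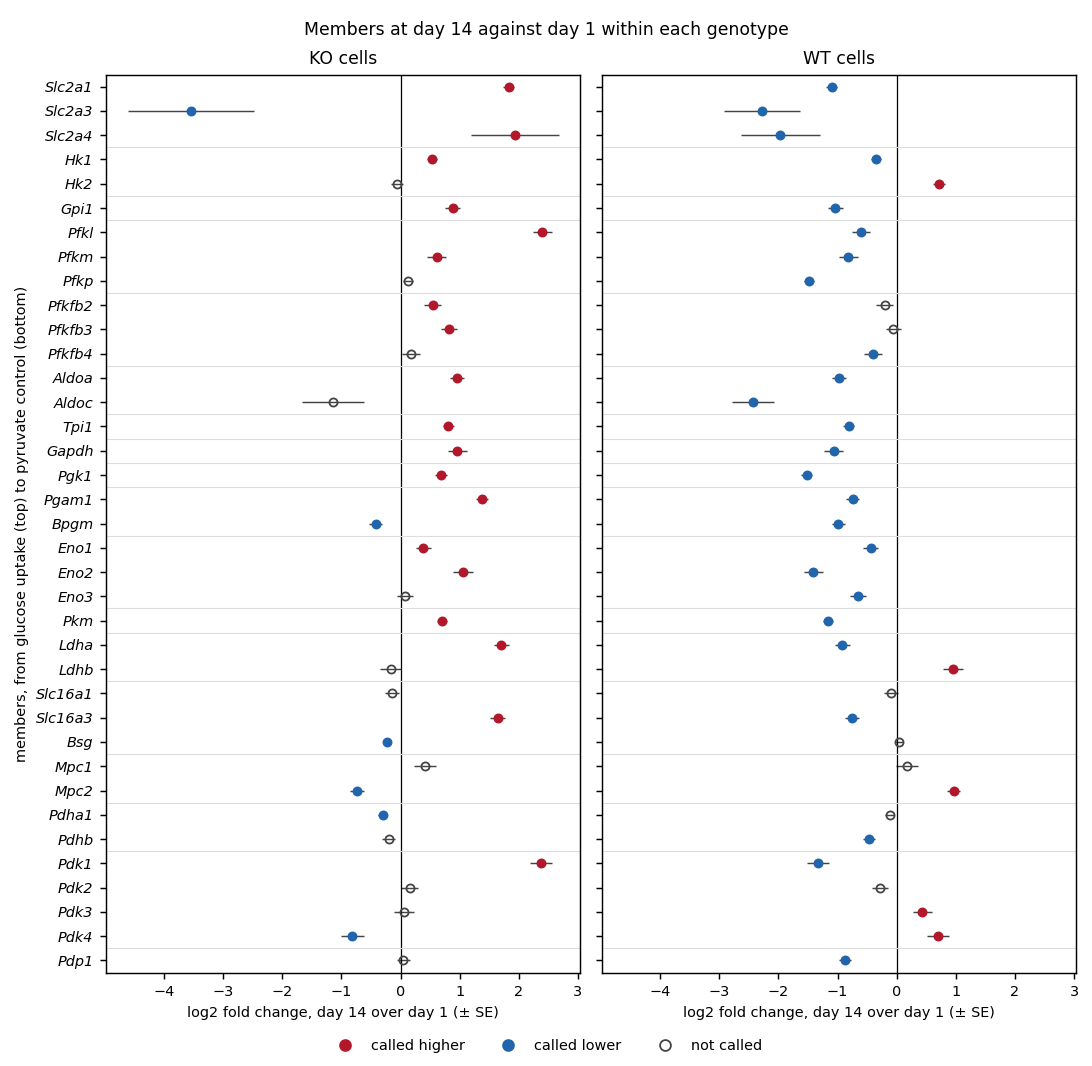
Log2 fold change of day 14 over day 1 in KO (left) and WT (right) for each member, with the standard error as a bar. Red points were called higher at day 14, blue points lower and open points not called. In KO 19 members are red and 6 blue, and in WT 5 are red and 25 blue.

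KO day 1 against WT day 14, where genotype, day and table all differ, gave 2 members called higher in KO day 1 (Pdha1 and Pdhb) and 9 lower of 37, beside 3.89% and 5.89% of all genes, 9.78% either way, with a median of -0.28. Nr4a3 itself was lower in KO day 1 (-6.82 ± 0.21, adjusted p = 4.84e-11). The 9 were Slc2a1, Gpi1, Pfkl, Aldoa, Tpi1, Pkm, Ldha, Slc16a3 and Pdk1, of which Pfkl (-1.15 ± 0.15, adjusted p = 4.01e-04) and Pdk1 (-0.95 ± 0.19, adjusted p = 0.00695) differed most. This comparison rests on WT day 14 replicate 1: without it, 6 members were called higher and 20 lower, beside 17.1% and 16.6% of all genes, and Pfkl and Pdk1 differed by -1.37 and -1.21 (adjusted p = 6.94e-11 and 1.40e-08).

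KO day 14 against WT day 1, which differ in genotype, day and table as well, gave 9 members called higher and 16 lower, beside 24.6% and 26.1% of all genes, 50.7% either way, with a median of -0.24. Here Nr4a3 was higher in the KO group (3.54 ± 0.18, adjusted p = 6.49e-10), so this is not a contrast of absent with present Nr4a3 transcript. Pfkl, Pgam1, Hk2, Slc2a1, Slc16a3, Pfkfb3, Ldhb, Mpc1 and Mpc2 were called higher in KO day 14. The lower calls included Pfkp (-1.36 ± 0.08, adjusted p = 3.49e-09), Pgk1 (-0.92 ± 0.09, adjusted p = 1.36e-06) and Pkm (-0.84 ± 0.09, adjusted p = 1.30e-06), whereas Pdk1 differed by 0.09 ± 0.18 (adjusted p = 0.704) and Eno1 by -0.11 ± 0.12 (adjusted p = 0.497).

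Genes next to the pathway were read from lists chosen by function. In pyruvate oxidation and the TCA cycle (tricarboxylic acid cycle), 10 of 23 tested genes were called higher in KO and 1 lower at day 14, and 5 higher and 9 lower at day 1, with medians of 0.29 and -0.07. Of all genes, 22.7% were called higher and 23.7% lower at day 14, and 30.6% and 30.2% at day 1. Without WT day 14 replicate 1, 13 of the 23 were called higher and 1 lower at day 14, beside 30.0% and 30.7% of all genes. Pcx, which feeds pyruvate into the cycle as oxaloacetate, stood at 34.5 ± 1.42 CPM in KO, against 9.53 ± 2.88 CPM in WT (a log2 fold change of 1.85 ± 0.21, adjusted p = 1.59e-04) at day 14. Without WT replicate 1 the log2 fold changes at day 14 were 1.60 for Pcx, 1.09 for Pck2 and -0.33 for Idh3b, all still called. Pck2, the mitochondrial enzyme that makes phosphoenolpyruvate, stood at 147 ± 7.02 CPM in KO, against 59.7 ± 13.3 CPM in WT (a log2 fold change of 1.28 ± 0.16, adjusted p = 2.19e-04) at day 14 and at 55.2 ± 8.81 CPM in KO, against 270.1 ± 4.35 CPM in WT (a log2 fold change of -2.28 ± 0.09, adjusted p = 3.94e-10) at day 1. Idh3b, a subunit of isocitrate dehydrogenase, was the 1 gene called lower at day 14, at 133 ± 7.94 CPM in KO, against 158 ± 7.75 CPM in WT (a log2 fold change of -0.27 ± 0.09, adjusted p = 0.0324), and was higher at day 1, at 166 ± 8.83 CPM in KO, against 133 ± 4.23 CPM in WT (a log2 fold change of 0.33 ± 0.06, adjusted p = 2.89e-04). Fh1, fumarate hydratase, was higher in KO at day 1, at 101 ± 4.27 CPM in KO, against 82.5 ± 3.16 CPM in WT (a log2 fold change of 0.31 ± 0.06, adjusted p = 6.79e-04). Pdp2, the other phosphatase of pyruvate dehydrogenase, was lower in KO at day 1, at 9.35 ± 1.79 CPM in KO, against 22.9 ± 1.19 CPM in WT (a log2 fold change of -1.29 ± 0.13, adjusted p = 2.17e-06).

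In the list of the hypoxia-inducible factor axis, 3 of 8 tested genes were called higher in KO at day 14 and the other 5 were not called, and 2 higher and 4 lower of 7 at day 1, with medians of 0.21 and -0.81. These counts stand beside 22.7% called higher and 23.7% lower of all genes at day 14, and 30.6% and 30.2% at day 1. Without WT day 14 replicate 1, 4 of the 8 were called higher and 1 lower at day 14, with a log2 fold change of 1.41 for Egln3. Egln3, a prolyl hydroxylase that is itself induced by HIF, stood at 63.7 ± 9.43 CPM in KO, against 23.9 ± 0.823 CPM in WT (a log2 fold change of 1.40 ± 0.13, adjusted p = 3.90e-05) at day 14 and at 23.7 ± 3.91 CPM in KO, against 52.1 ± 2.0 CPM in WT (a log2 fold change of -1.13 ± 0.11, adjusted p = 1.05e-06) at day 1. Hif1a, the oxygen-regulated subunit, was lower in KO at day 1, at 177 ± 6.89 CPM in KO, against 435 ± 11.1 CPM in WT (a log2 fold change of -1.29 ± 0.05, adjusted p = 5.72e-10). Vhl, which marks HIF for breakdown, was slightly higher in KO at day 1, at 27.3 ± 3.20 CPM in KO, against 22.5 ± 0.708 CPM in WT (a log2 fold change of 0.29 ± 0.10, adjusted p = 0.0204), as was Hif1an, an inhibitor of HIF, at 49.0 ± 2.01 CPM in KO, against 42.1 ± 0.813 CPM in WT (a log2 fold change of 0.23 ± 0.07, adjusted p = 0.0112). Epas1, which encodes HIF-2alpha, was near the detection limit at day 14, at 1.99 ± 0.627 CPM in KO, against 0.15 ± 0.218 CPM in WT. It passed the filter there through the KO libraries and was called higher in KO (a log2 fold change of 3.54 ± 0.71, adjusted p = 0.00345). That call, included in both day 14 counts of this list, is not read as support. These transcript levels do not measure HIF protein, which is set mainly by its breakdown.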

How the data were processed

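The authors deposited raw counts per gene in 1 table per day, made on mouse build mm9 per the submitters' processing notes. For the aligner, counter, annotation and strand setting, nothing is given in the sources used here. A repeated Aldoa row in each table was dropped. The sequences came from RefSeq tables on GRCm38.p6.

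Counts were tested with edgeR 4.0.16 (quasi-likelihood F test, TMM scaling, filterByExpr, Benjamini-Hochberg adjustment over all genes tested, called below 0.05) in R 4.3.3. KO against WT was fitted on the 6 libraries of a day, and all other comparisons on all 12. SE is the log2 fold change divided by the root of F. Shares used exact two-sided permutation tests. Alternatives included DESeq2 1.42.0, other scalings and filters, leaving out each library and a replicate block. The fit was tested on simulated counts.

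Members and lists were chosen with earlier results of these data known. Full values were given for the member of each step with the highest mean CPM and for members called with an absolute log2 fold change of at least 1, and for up to 2 rises and 2 falls of each other list. PCR duplicates cannot be told from molecules in such counts.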

Additional observations from a re-analysis of the deposited data

Results flagged for a closer look

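For 29 of the 37 members the KO effect differed between the days by the test of the difference itself (edgeR, 12 libraries). Each value below is the KO-over-WT log2 fold change at day 14 minus that at day 1, and day and table cannot be told apart in it.

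In glucose uptake and its first steps the difference was 2.93 for Slc2a1, 3.90 for Slc2a4 (on few counts, and not read as support), 0.87 for Hk1, -0.78 for Hk2 and 1.92 for Gpi1. In phosphofructokinase and its control it was 2.99 for Pfkl, 1.43 for Pfkm, 1.61 for Pfkp, 0.74 for Pfkfb2, 0.88 for Pfkfb3 and 0.57 for Pfkfb4. From aldolase to pyruvate kinase it was 1.93 for Aldoa, 1.62 for Tpi1, 2.02 for Gapdh, 2.21 for Pgk1, 2.12 for Pgam1, 0.57 for Bpgm, 0.82 for Eno1, 2.47 for Eno2, 0.73 for Eno3 and 1.85 for Pkm. Among the lactate genes it was 2.62 for Ldha, -1.12 for Ldhb, 2.40 for Slc16a3 and -0.27 for Bsg. Among the mitochondrial genes it was -1.70 for Mpc2, 3.71 for Pdk1, -1.52 for Pdk4 and 0.92 for Pdp1. The call for Pfkfb4 was lost under 6 of its 19 alternatives, which were library size alone and 5 single libraries left out (adjusted p up to 0.155). That for Bpgm was lost with library size alone (adjusted p = 0.0560), and that for Bsg with no filter and without WT day 1 replicate 1 (adjusted p up to 0.0983). Without WT day 14 replicate 1 the count was 26 members upwards and 6 downwards, beside 31.2% and 32.7% of all genes.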

How the results depend on the processing

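With each library left out in turn, 4 to 6 members were called higher and 25 to 28 lower at day 1, and 23 to 26 higher and 4 to 6 lower in the change. The day 1 count of members called higher was 3 with all 12 libraries in the fit. At day 14, 17 members were called higher with no filter and 19 with all 12 libraries in the fit, and leaving out 1 library gave 8 to 17 higher and 3 to 8 lower. In KO day 1 against WT day 14, DESeq2 called 4 members higher, a fit of only its own libraries called 0 higher and 1 lower with 205 genes in all against 1562, and leaving out 1 library gave 0 to 6 higher, 5 to 20 lower and 576 to 5538 genes in all. 

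No pairing of the samples by replicate number was seen, as same-numbered deviations from group means did not all correlate above 0.1 in any pair of groups. With 3 libraries a group this cannot exclude shared animals or cultures. With the replicate block, 15 members were called higher and 5 lower at day 14 (6714 genes in all), 5 and 27 at day 1 (9090 genes), 24 and 5 in the change of the KO effect, and 10 and 16 in KO day 14 against WT day 1.

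Signs turned 20 times, always for members not called. With scaling by library size alone these were Pdhb 0.0961 and Pdk3 0.0566 at day 1, Eno3 -0.0048, Pdk3 -0.0276 and Pdp1 -0.0334 in KO across days, and Pfkfb3 0.0764, Slc16a1 0.0293 and Pdha1 0.0134 in WT across days. With copies summed, an alternative added after the data were seen, Mpc1 in WT across days was -0.1523. Leaving out 1 library gave, at day 14, -0.3468 to 0.0825 for Ldhb, -0.0810 to 0.0151 for Pdha1 and -0.0499 to 0.1791 for Pdk2, and in the change -0.1727 to 0.1491 for Slc16a1. Across days it gave -0.0021 to 0.1489 for Eno3, -0.0078 to 0.1017 for Pdk3 and -0.0308 to 0.1441 for Pdp1 in KO, and -0.1593 to 0.1246 for Pfkfb3 and -0.2988 to 0.0411 for Slc16a1 in WT. The causes were not tested. Over all alternatives single members kept direction and call 2598 times, 55 calls were gained and 64 lost.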

Other observations

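Branches that leave glycolysis were read from lists chosen by function. In the pentose phosphate pathway, which makes NADPH and ribose, 4 of 10 tested genes were called higher in KO and 1 lower at day 14, and 5 higher and 5 lower at day 1, with medians of 0.12 and -0.16. For this and the lists below, 22.7% of all genes were called higher and 23.7% lower at day 14, and 30.6% and 30.2% at day 1, and 30.0% and 30.7% at day 14 without WT day 14 replicate 1. Without that library 5 of the 10 were called higher and 3 lower, with log2 fold changes of 1.30 for G6pdx, 0.71 for H6pd and -1.17 for Taldo1. G6pdx, its first enzyme, stood at 168 ± 9.80 CPM in KO, against 74.1 ± 12.5 CPM in WT (a log2 fold change of 1.17 ± 0.12, adjusted p = 9.45e-05) at day 14 and at 79.1 ± 4.77 CPM in KO, against 201 ± 0.245 CPM in WT (a log2 fold change of -1.34 ± 0.06, adjusted p = 8.76e-10) at day 1. H6pd, the related enzyme of the endoplasmic reticulum, stood at 89.1 ± 8.23 CPM in KO, against 47.7 ± 9.29 CPM in WT (a log2 fold change of 0.89 ± 0.15, adjusted p = 0.00132) at day 14. Taldo1, a transaldolase of the non-oxidative branch, went the other way, at 192 ± 12.7 CPM in KO, against 390.0 ± 56.2 CPM in WT (a log2 fold change of -1.04 ± 0.12, adjusted p = 1.66e-04) at day 14 and 345 ± 26.9 CPM in KO, against 173 ± 4.07 CPM in WT (a log2 fold change of 1.00 ± 0.06, adjusted p = 2.47e-08) at day 1. Tkt, the transketolase, was lower in KO at day 1, at 84.1 ± 6.64 CPM in KO, against 188 ± 7.41 CPM in WT (a log2 fold change of -1.15 ± 0.07, adjusted p = 1.07e-08), and Prps1, which makes the ribose donor for nucleotides, was higher, at 73.2 ± 3.57 CPM in KO, against 52.1 ± 1.40 CPM in WT (a log2 fold change of 0.50 ± 0.06, adjusted p = 1.99e-05).

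In the serine, hexosamine and glycerol branches, 2 of 10 tested genes were called higher in KO at day 14 and the other 8 were not called, and 1 of 11 was called higher and 8 lower at day 1. Of the 10, 6 were called higher and 1 lower at day 14 without WT day 14 replicate 1, with log2 fold changes of 0.75 for Gpd2 and 0.43 for Uap1. The day 14 share of 2 in 10 is near that of all genes. Gpd2, the mitochondrial glycerol-3-phosphate dehydrogenase, stood at 166 ± 4.91 CPM in KO, against 96.9 ± 2.56 CPM in WT (a log2 fold change of 0.76 ± 0.08, adjusted p = 8.65e-05) at day 14 and at 97.5 ± 7.01 CPM in KO, against 303 ± 13.7 CPM in WT (a log2 fold change of -1.63 ± 0.07, adjusted p = 3.49e-10) at day 1. Uap1, of the hexosamine branch, was higher in KO at day 14, at 70.5 ± 10.8 CPM in KO, against 46.0 ± 9.24 CPM in WT (a log2 fold change of 0.61 ± 0.17, adjusted p = 0.016), and Shmt1, a serine hydroxymethyltransferase, was higher in KO at day 1, at 32.4 ± 4.45 CPM in KO, against 17.6 ± 0.371 CPM in WT (a log2 fold change of 0.88 ± 0.10, adjusted p = 8.90e-06). Gfpt2, which starts the hexosamine branch, was called lower in KO at day 1 but was near the detection limit there.

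Of the malate-aspartate shuttle genes, which carry NADH equivalents into mitochondria, 3 of 5 were called higher in KO at day 14, and 3 of 5 lower at day 1, and the day 14 count was also 3 without WT replicate 1. Slc25a12, an aspartate-glutamate carrier, stood at 84.3 ± 2.37 CPM in KO, against 54.8 ± 3.65 CPM in WT (a log2 fold change of 0.61 ± 0.09, adjusted p = 6.28e-04) at day 14, and Slc25a11, the oxoglutarate carrier, at 77.8 ± 3.88 CPM in KO, against 56.0 ± 0.823 CPM in WT (a log2 fold change of 0.46 ± 0.09, adjusted p = 0.0022). Without WT replicate 1 their log2 fold changes were 0.63 and 0.45. Got2, the mitochondrial aspartate aminotransferase, stood at 92.1 ± 6.11 CPM in KO, against 143 ± 3.77 CPM in WT (a log2 fold change of -0.63 ± 0.06, adjusted p = 1.90e-06) at day 1, and Mdh1, the cytosolic malate dehydrogenase, stood at 123 ± 7.11 CPM in KO, against 153 ± 7.12 CPM in WT (a log2 fold change of -0.30 ± 0.06, adjusted p = 9.35e-04).

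Of 15 other glycolysis genes tested at day 14, 4 were called higher in KO and 3 lower, and of 14 at day 1, 7 higher and 2 lower. The day 14 counts without WT day 14 replicate 1 were 6 higher and 4 lower, with log2 fold changes of 1.44 for Slc2a10, 2.12 for Slc2a6 and -0.36 for Pgam5. Slc2a10, a glucose transporter, stood at 8.66 ± 0.286 CPM in KO, against 2.74 ± 0.782 CPM in WT (a log2 fold change of 1.64 ± 0.23, adjusted p = 5.12e-04) at day 14 and 2.70 ± 0.283 CPM in KO, against 5.95 ± 0.857 CPM in WT (a log2 fold change of -1.13 ± 0.19, adjusted p = 2.00e-04) at day 1, and Slc2a6, another, at 4.42 ± 1.44 CPM in KO, against 1.12 ± 0.737 CPM in WT (a log2 fold change of 2.01 ± 0.49, adjusted p = 0.00891) at day 14. Ldhd, the D-lactate dehydrogenase, was near the detection limit at day 14, at 0.235 ± 0.186 CPM in KO, against 1.71 ± 0.962 CPM in WT. It passed the filter there through the WT libraries and was called lower in KO (a log2 fold change of -2.78 ± 0.70, adjusted p = 0.0105). That call, included in both day 14 counts of this list, is not read as support. Pgam5, a mitochondrial phosphatase, was also lower in KO at day 14, at 9.52 ± 0.236 CPM in KO, against 14 ± 3.47 CPM in WT (a log2 fold change of -0.57 ± 0.19, adjusted p = 0.0343). At day 1 Tigar, which lowers fructose-2,6-bisphosphate, stood at 11.9 ± 2.39 CPM in KO, against 4.78 ± 0.118 CPM in WT (a log2 fold change of 1.33 ± 0.16, adjusted p = 9.75e-06), Galm, the galactose mutarotase, at 17.8 ± 1.73 CPM in KO, against 7.39 ± 0.426 CPM in WT (a log2 fold change of 1.28 ± 0.12, adjusted p = 9.37e-07), and Pgm2, of the phosphoglucomutase family, at 52.1 ± 5.78 CPM in KO, against 166 ± 2.08 CPM in WT (a log2 fold change of -1.66 ± 0.08, adjusted p = 1.02e-09).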
